A study of Mus musculus with 4 samples.

Results

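The genes described here make and release active TGF-beta: Itgb8 and Itgav, which encode the 2 chains of an integrin that frees it, Lrrc32, which encodes the surface anchor GARP, Tgfb1, which encodes the cytokine precursor, and Furin, which encodes a protease that cleaves that precursor. They were taken by name, as every probe set annotated to one of the 5 genes alone. Of the 5 genes 4 had such a probe set, with 9 probe sets in all: 1 for Itgb8, 5 for Itgav, 2 for Tgfb1 and 1 for Furin, out of 18194 genes with a probe set of their own and 45037 probe sets that were not controls. Lrrc32 had 0 and has no value here. The genes were chosen by name with the log2 differences between Nrp1-positive and Nrp1-negative cells in these arrays already known, so those differences are a description, without a test.

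The cells were CD4+ Foxp3+ regulatory T cells sorted from the spleen of Balb/c mice carrying Foxp3 GFP, which makes cells with the lineage-defining transcription factor Foxp3 fluorescent. They were split into Nrp1-positive (2 arrays) and Nrp1-negative (2 arrays) cells. Nrp1, neuropilin-1, is a surface receptor that binds semaphorins. Each group has arrays numbered replicate 1 and replicate 2. The mice were 4 to 6 weeks old for 3 arrays and 4 to 8 weeks for Nrp1-negative replicate 1. That array is Nrp1-negative by its title, while its source name and its cell type read as Nrp1-positive. It was kept with its title, and results are also given without it and with it moved to the other group. Nothing in the labels says that arrays came from separate mice or sorts, so the spread between them may be technical.

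TGF-beta restrains T cells and supports the regulatory lineage. It is made as a precursor that furin cuts into the mature cytokine and a latency peptide, which stays wrapped around the cytokine and keeps it inactive. On regulatory T cells GARP, the product of Lrrc32, tethers this latent complex to the surface. The integrin of the alpha-v chain (Itgav) and the beta-8 chain (Itgb8) binds a short arginine-glycine-aspartate motif in the latency peptide and makes the cytokine accessible. The alpha-v chain also pairs with other beta chains, while beta-8 pairs with alpha-v alone.

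The arrays numbered 1 and those numbered 2 differed in the deposited scaling and in a control ratio. The 2% trimmed mean of the deposited intensities was 500.003 on both arrays numbered 1 and 150.001 on both numbered 2, and all arrays were brought to 500. The Gapdh control probe sets for the 3-prime and the 5-prime end had an intensity ratio of 1.54 and 1.74 on the Nrp1-positive and Nrp1-negative arrays numbered 1, and 0.711 and 0.763 on those numbered 2. Differences are therefore given within each replicate number. The pair of replicate 1 is not matched in age range, at 4 to 6 weeks for Nrp1-positive and 4 to 8 weeks for Nrp1-negative. Age and sorted population cannot be told apart in that pair. They are on the scale log2(intensity + 18.3), which understates the change of dim probe sets, and run Nrp1-positive minus Nrp1-negative. Nrp1 itself had scaled intensities of 9344 and 7745 in Nrp1-positive replicates 1 and 2, against 339 and 1223 in Nrp1-negative replicates 1 and 2. Nrp1 was high or low on each array as its title says, and the array with conflicting labels had the lowest Nrp1 level of the 4. Of the markers of the labelled cells, Cd4 had 2261 and 755 in Nrp1-positive replicates 1 and 2, against 2199 and 723 in Nrp1-negative replicates 1 and 2, a step between replicate numbers and not between groups. On the 4 arrays Cd3e had 5243 to 8016, Ctla4 5715 to 9100 and Il2ra 2602 to 3440. Ikzf2 had 19030 and 16189 in Nrp1-positive replicates 1 and 2, against 9414 and 10297 in Nrp1-negative replicates 1 and 2. Tnfrsf18 had 9574 and 12602 against 7150 and 9176 in the same order. Ikzf2 and Tnfrsf18 were thus higher in Nrp1-positive cells in both replicate numbers, as was Il2ra by less. Cd3e and Cd3d were slightly lower in both, and Ctla4 turned in direction. The single Foxp3 probe set lay at percentile 17.8 of mean level, with 2.16 and 19.9 in Nrp1-positive cells, against 4.45 and 36.4 in Nrp1-negative cells, so the array gave no usable reading of Foxp3 RNA.

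Itgb8, the beta-8 chain, was the member with the largest mean difference of the 4 genes, and its RNA was higher in Nrp1-positive cells in both replicate numbers. Its probe set (1436223_at) had scaled intensities of 1168 and 1236 in Nrp1-positive replicates 1 and 2, against 381 and 809 in Nrp1-negative replicates 1 and 2. Both Nrp1-positive arrays lay above both Nrp1-negative ones. The Nrp1-positive arrays nearly coincided, whereas the Nrp1-negative arrays differed between themselves by 1.05 on the log2 scale. The means were 1202 ± 48.6 in Nrp1-positive cells and 595 ± 302 in Nrp1-negative cells (SD, n = 2 each). The log2 difference was 1.57 in replicate 1 and 0.60 in replicate 2, or 3.06-fold and 1.53-fold as plain ratios of intensities, with a mean of 1.08 on the log2 scale. Among probe sets past the level filter, at percentile 50 of mean level, 1.08 stood at percentile 99.6 of the mean differences, a rank that comes from the contrast known when the members were proposed.

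The size of the Itgb8 difference rested on the Nrp1-negative arrays. Leaving out Nrp1-negative replicate 1 gave 0.56, and leaving out Nrp1-negative replicate 2 gave 1.61. Moving Nrp1-negative replicate 1, the array with conflicting labels and the wider age range, to the Nrp1-positive group brought it to 0.023. Nrp1 varied the same way within the Nrp1-negative group, at 339 in replicate 1 and 1223 in replicate 2, where Itgb8 was 381 and 809. Whether the remaining Nrp1 signal in Nrp1-negative replicate 2 has a part in its higher Itgb8 level was not tested. In a bulk sample, fewer cells with Itgb8 RNA and less Itgb8 RNA per cell cannot be told apart.

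**Figure D1:**
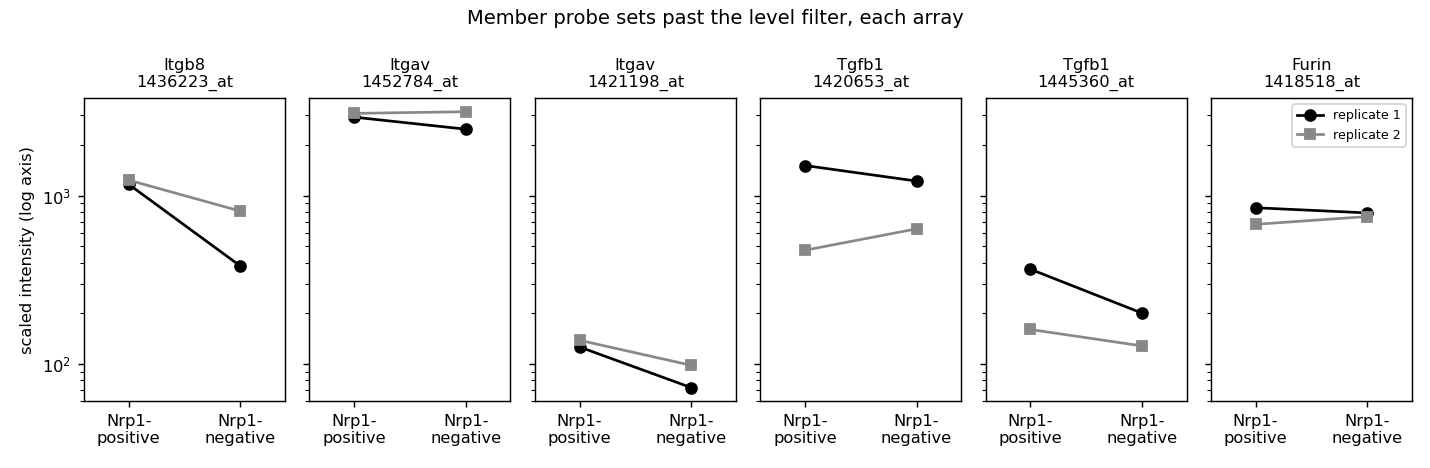
Scaled intensity (log axis) of the 6 member probe sets past the level filter, Nrp1-positive on the left and Nrp1-negative on the right of each panel. Lines join the arrays of one replicate number, and heights of different probe sets are not comparable. For Itgb8 both Nrp1-positive arrays (1168 and 1236) lie above both Nrp1-negative arrays (381 and 809), while for Tgfb1 (1420653_at) the lines of the 2 replicates slope in opposite directions.

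The start regions of the 2 integrin genes are shown because their products form one integrin, so that they can be read beside the values of both chains. Both are RefSeq windows on GRCm38.p6 of 250 bases before to 50 after the annotated gene start, written 5′ to 3′ on the strand of the gene. Capitals mark every match, on either strand, to one of 6 motifs. The GC box of Sp and Kruppel-like factors was searched as GGGCGG, and the TATA box of core promoters as TATAAA. The binding box of Smad proteins was searched as CAGAC, and the site of AP-1 factors as TGANTCA. The site of Runx factors was searched as TGTGGT, and the core of Ikaros family sites as TGGGAA. The Itgb8 window is chr12:119238227-119238526 on the minus strand and the Itgav window is chr2:83724147-83724446 on the plus strand.
Itgb8: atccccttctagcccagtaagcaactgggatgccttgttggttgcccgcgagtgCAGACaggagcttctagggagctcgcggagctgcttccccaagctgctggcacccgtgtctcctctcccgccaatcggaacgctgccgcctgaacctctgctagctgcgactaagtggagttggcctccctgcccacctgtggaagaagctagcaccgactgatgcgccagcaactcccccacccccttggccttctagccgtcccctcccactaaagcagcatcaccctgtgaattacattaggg
Itgav: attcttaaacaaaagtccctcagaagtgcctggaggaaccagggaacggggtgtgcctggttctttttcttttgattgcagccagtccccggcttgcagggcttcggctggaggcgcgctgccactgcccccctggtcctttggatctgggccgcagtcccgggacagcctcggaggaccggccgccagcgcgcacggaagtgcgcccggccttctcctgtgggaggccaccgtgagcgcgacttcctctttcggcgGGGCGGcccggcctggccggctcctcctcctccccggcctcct
The Itgb8 window held 1 CAGAC and 0 matches to the other motifs, and the Itgav window held 1 GGGCGG, just past the annotated start, and 0 matches to the others. These letters are common. Of 32851 windows of this length, 49.6% held the Smad box, 35.7% the GC box, 25.6% the Ikaros core, 16.8% the Runx site, 13.6% the TATA box and 7.8% the AP-1 site. The windows had a GC content of 60.7% for Itgb8 and 67.3% for Itgav, against a median of 52.7% over all windows. The arrays do not show which start site was used.

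Itgav, the alpha-v chain, was bright and nearly equal in the sorted populations at its brightest probe set. Probe set 1452784_at had scaled intensities of 2929 and 3085 in Nrp1-positive replicates 1 and 2, against 2484 and 3155 in Nrp1-negative replicates 1 and 2. The groups overlapped and the direction turned, with log2 differences of 0.24 in replicate 1 and −0.03 in replicate 2. A dimmer probe set of the same gene did not overlap between the groups. This was 1421198_at, with 126 and 138 in Nrp1-positive against 72.2 and 98.1 in Nrp1-negative cells, and log2 differences of 0.67 and 0.43. The other 3 Itgav probe sets lay below the level filter, at percentiles 35.6 to 49.6 of mean level, and disagreed in sign. Their mean differences were −0.70 (1432678_at), −0.31 (1432296_a_at) and 0.80 (1432679_at). The lowest Itgav reading of the Nrp1-positive arrays, 9.46 for 1432678_at in replicate 1, stood against 138 in replicate 2 of the same group. The probe sets of Itgav therefore gave no common direction. Which transcripts each of them reads was not analysed here.

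Tgfb1, the cytokine precursor, differed more between replicate numbers than between the sorted populations at its brighter probe set. Probe set 1420653_at had scaled intensities of 1511 and 474 in Nrp1-positive replicates 1 and 2, against 1221 and 635 in Nrp1-negative replicates 1 and 2. It was higher in Nrp1-positive cells in replicate 1, by 0.30 on the log2 scale, and lower in replicate 2, at −0.41, with a mean of −0.05. Replicate 2 minus replicate 1 was −1.64 for the Nrp1-positive pair and −0.92 for the Nrp1-negative pair. The second probe set, 1445360_at, had 366 and 160 in Nrp1-positive against 200 and 128 in Nrp1-negative cells. It was higher in Nrp1-positive cells in both replicate numbers, by 0.81 and 0.29, but the groups overlapped. It too was lower on the arrays numbered 2, at −1.11 for the Nrp1-positive pair and −0.58 for the Nrp1-negative pair. The probe sets thus agreed on the step between replicate numbers and disagreed on the sorted populations in replicate 2.

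Tgfb1 is shown with its start region because the GC boxes known from TGF-beta 1 promoters can be read in it. The RefSeq window is chr7:25686752-25687051 on the plus strand of GRCm38.p6, with capitals for the same motifs.
Tgfb1: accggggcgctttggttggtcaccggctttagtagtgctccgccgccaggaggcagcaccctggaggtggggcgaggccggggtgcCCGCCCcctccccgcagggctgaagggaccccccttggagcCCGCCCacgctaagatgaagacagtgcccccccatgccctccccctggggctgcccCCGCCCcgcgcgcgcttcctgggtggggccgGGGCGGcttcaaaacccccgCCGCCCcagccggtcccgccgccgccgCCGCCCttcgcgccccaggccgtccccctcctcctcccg
It held 6 matches to GGGCGG on either strand and 0 to the other 5 motifs, at a GC content of 77.0%.

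Furin, the protease that cuts the precursor, was nearly level over all 4 arrays. Probe set 1418518_at had scaled intensities of 847 and 675 in Nrp1-positive replicates 1 and 2, against 790 and 751 in Nrp1-negative replicates 1 and 2. The groups overlapped, and the log2 differences of 0.10 in replicate 1 and −0.15 in replicate 2 had opposite signs. The means were 761 ± 122 in Nrp1-positive cells and 770 ± 27.3 in Nrp1-negative cells (SD, n = 2 each). For comparison, the median absolute difference over the 10200 genes tested was 0.17 in replicate 1 and 0.16 in replicate 2.

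Over all 9 probe sets, 6 had one direction in both replicate numbers, where 50.9% of all probe sets did. Of the 6 probe sets past the level filter 3 had one direction, where 51.8% of those past it did. In 2 of the 9, Itgb8 and Itgav 1421198_at, the Nrp1-positive and Nrp1-negative arrays kept apart, against 25.3% of all probe sets. In limma, a linear model with a shared variance estimate, fitted to all 10200 genes with the replicate number as a block, 0 of the 4 member genes passed an adjusted p of 0.05. Of all genes 0.284% passed as higher and 0.167% as lower in Nrp1-positive cells. With the arrays also quantile normalised, 1 of the 4 passed, Itgb8, beside 1.05% of genes higher and 0.608% lower. These counts describe the members and support nothing further, since the same contrast chose them.

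**Figure D2:**
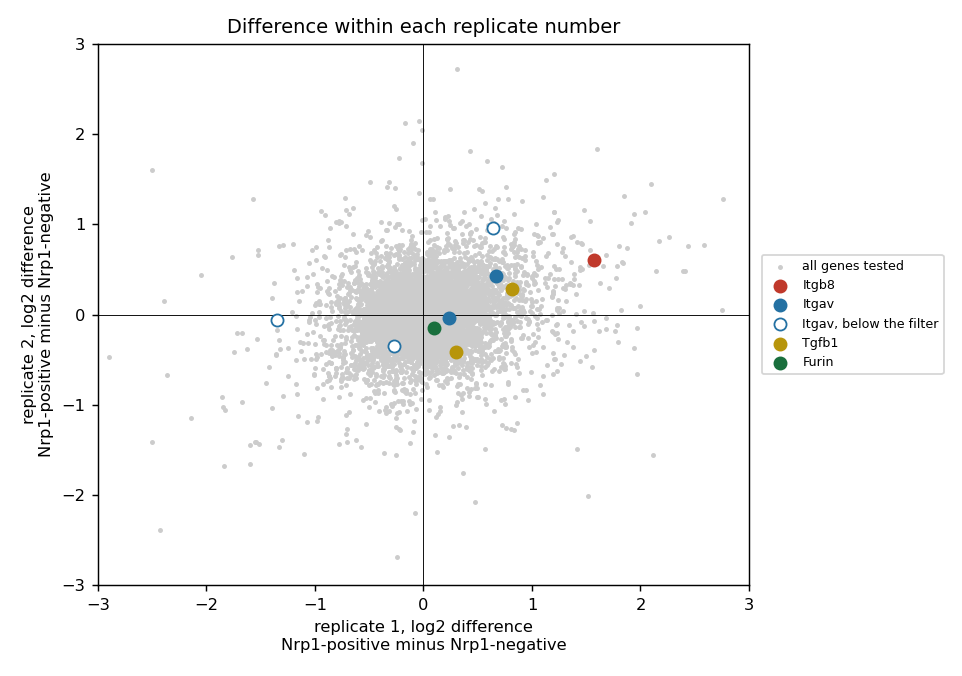
Log2 difference, Nrp1-positive minus Nrp1-negative, in replicate 1 (horizontal) against replicate 2 (vertical). Grey points are the 10200 genes tested (2 lie outside the axes), filled circles member probe sets past the level filter and open circles those below it. Itgb8 lies at 1.57 and 0.60, and Furin and the bright Itgav probe set lie near the origin.

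The genes whose 4 values followed Itgb8 most closely were Fry, Scin, Gucy1a1, Napb and Fam214b. Likeness was the Euclidean distance between the log2 values of the 4 arrays, each gene centred on its mean, among the genes past the level filter. The distances ran from 0.07 for Fry to 0.19 for Fam214b, where the median gene was at 1.37. Fry had scaled intensities of 279 and 283 in Nrp1-positive against 76.4 and 188 in Nrp1-negative cells. Scin, which encodes the actin-severing protein adseverin, had 129 and 135 against 35.8 and 90.1. Gucy1a1, which encodes a subunit of soluble guanylate cyclase, had 420 and 503 against 141 and 285. All 5 genes had close Nrp1-positive arrays and a lower value in Nrp1-negative replicate 1 than in replicate 2. Itgb8 has this pattern, so choosing genes by their distance to it fixed the pattern in advance. These distances rest on 4 arrays that share their replicate numbers.

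**Figure D3:**
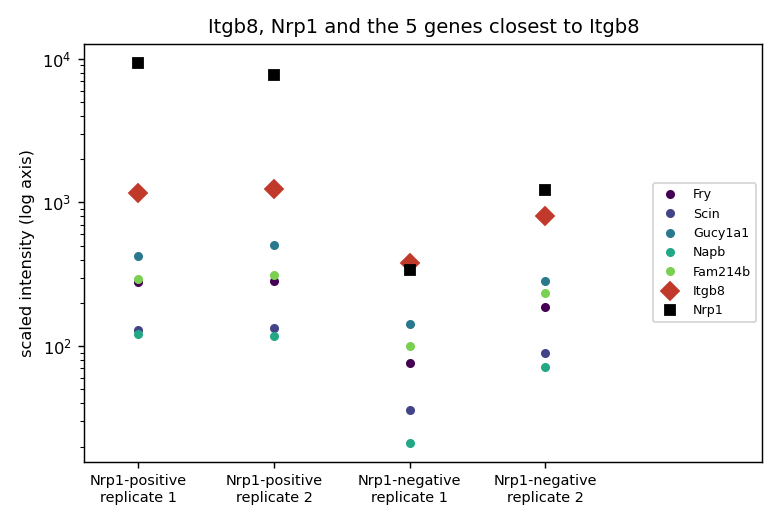
Scaled intensity (log axis) of Itgb8, of Nrp1 and of the 5 genes closest to Itgb8 on each array. Each is lowest in Nrp1-negative replicate 1 (381 for Itgb8, 339 for Nrp1), and Nrp1-negative replicate 2 lies between that array and the Nrp1-positive arrays. The 5 genes share this pattern with Itgb8 because they were chosen by it.

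The rest of the pathway was read from 7 gene lists with 66 genes, of which 62 had a probe set and 45 passed the level filter. Most of these genes did not pass the test in either direction. Without the block 0 of the 45 passed in limma, as did 0 of all 10200 genes, of which 147 had an unadjusted p below 0.05. With the block Nrp1, Itgb1 and Id3 were higher and Tgfbr3 lower in Nrp1-positive cells. Nrp1 is the sorted marker and no independent result. With the block but no mean-variance trend, 0 passed (adjusted p = 0.44 for Itgb1, Id3 and Tgfbr3 in limma). The median difference of the 45 genes was 0.04, against 0.00381 over all genes, and 25 of the 45 were above 0. Outside these lists, the regulatory T cell marker Ikzf2 passed as higher in Nrp1-positive cells (limma with the block, adjusted p = 0.0329). It did not pass without the block, or with the block but no trend.

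Among the integrin genes related to alpha-v, Itgb1 passed the threshold with the block and the other 3 tested genes did not. Itgb1, the beta-1 chain, which pairs with alpha-v and many other alpha chains, had scaled intensities of 2166 and 1527 in Nrp1-positive replicates 1 and 2, against 304 and 616 in Nrp1-negative replicates 1 and 2. It was higher by 2.02 ± 0.28 (standard error) on the log2 scale, at 2.76 in replicate 1 and 1.29 in replicate 2 (limma with the block, adjusted p = 0.0267, and 1.00 without it). Its difference was 0.70 with Nrp1-negative replicate 1 moved to the Nrp1-positive group. All 3 Itgb1 probe sets past the filter were higher in both replicate numbers, with mean differences from 0.91 to 2.02. Itgb5, the beta-5 chain, was picked out once its values were known. It had 328 and 468 in Nrp1-positive against 764 and 812 in Nrp1-negative cells, which gave −0.97 on the log2 scale and did not pass (adjusted p = 0.0564 in limma with the block, and 0.00301 with quantile normalisation as well). That value comes from 1 probe set of 4, and the other 3 lay below the filter with mean differences of −0.08 to 0.24. Itgb3, the beta-3 chain, had 235 and 297 against 255 and 287, with a difference of −0.03. Itgb6, another beta chain known for activating latent TGF-beta, had no probe set past the filter. Of the 4 tested genes on this list 1 was higher, 0 were lower and 3 did not pass.

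Genes for the latent complex and its other activators gave no calls beside Nrp1, with 5 of 6 tested genes not past the threshold. Nrros, which encodes the GARP-related anchor of myeloid cells, had scaled intensities of 1487 and 1990 in Nrp1-positive against 1612 and 1797 in Nrp1-negative cells, with log2 differences of −0.12 and 0.15. Tgfb2 and Tgfb3, the other TGF-beta genes, lay below the filter, and the 4 arrays read 15.5 to 42.1 for Tgfb2 and 2.11 to 20.4 for Tgfb3.

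Of 3 tested proprotein convertases, relatives of furin, 0 passed. Their mean differences ran from −0.39 for Pcsk4 to −0.0033 for Mbtps1. The 7 chaperone genes, among them Hsp90b1, whose product gp96 folds integrins and GARP, ran from −0.13 for Hsp90b1 to 0.18 for Cnpy2 with 0 past the threshold. The 5 tested adaptors of integrin tails ran from −0.02 for Itgb1bp1 to 0.22 for Vcl, again with 0 past the threshold. These lists had medians of −0.02, −0.02 and 0.05 in that order.

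Among TGF-beta receptors and Smads, Tgfbr3, a coreceptor that presents TGF-beta, was lower in Nrp1-positive cells, and 10 of the 11 tested genes did not pass. Tgfbr3 had scaled intensities of 455 and 440 in Nrp1-positive replicates 1 and 2, against 977 and 1025 in Nrp1-negative replicates 1 and 2. At this probe set the groups were far apart and the difference was alike in both replicate numbers, at −1.07 and −1.19 (limma with the block, standard error 0.14, adjusted p = 0.0182, and 1.00 without it). It is 1 probe set of 2, and the other, below the filter, had differences of 0.02 in replicate 1 and −0.89 in replicate 2. The signalling receptor genes Tgfbr1 and Tgfbr2 differed by 0.28 and −0.05 without passing.

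Of 9 tested genes that respond to TGF-beta, 1 was higher, 0 were lower and 8 did not pass. The list median was 0.26, against 0.00381 over all genes, and 7 of the 9 were above 0. The list was not split by whether TGF-beta raises or lowers a gene, so this count is no reading of a TGF-beta response. Id3, whose product holds E proteins off DNA, had 3394 and 3290 in Nrp1-positive against 2144 and 2124 in Nrp1-negative cells. Its log2 difference was 0.66 in replicate 1 and 0.63 in replicate 2 (limma with the block, standard error 0.10, adjusted p = 0.0364, and 1.00 without it). Itgae, the CD103 chain, likewise picked out once its values were known, had 6481 and 6874 in Nrp1-positive against 3262 and 6682 in Nrp1-negative cells. At this probe set the low array was Nrp1-negative replicate 1, with log2 differences of 0.99 in replicate 1 and 0.04 in replicate 2, and the gene did not pass. A second Itgae probe set past the filter had 1760 and 1743 in Nrp1-positive against 1057 and 1418 in Nrp1-negative cells, with differences of 0.73 and 0.30, so both Nrp1-negative arrays were low there.

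**Figure D4:**
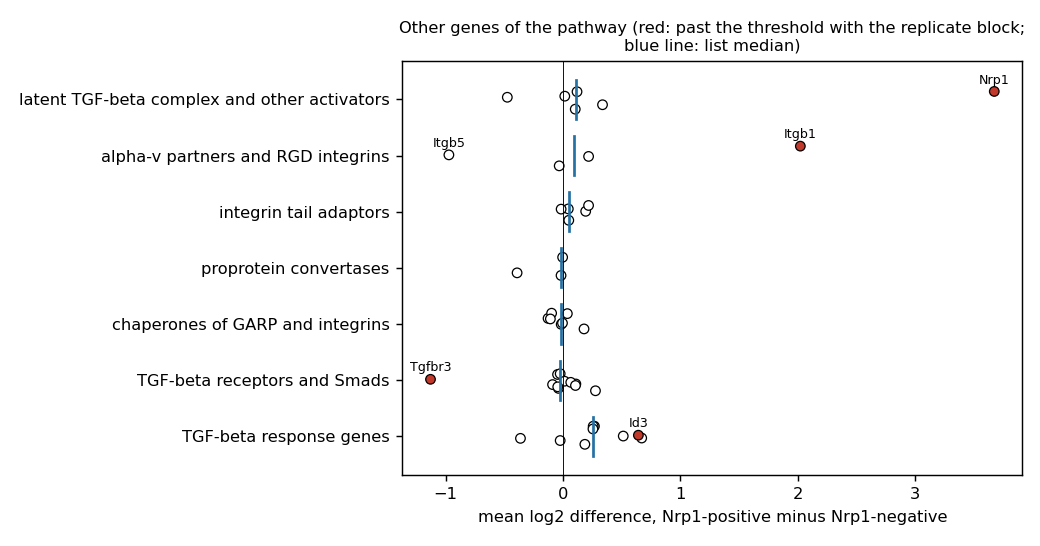
Mean log2 difference (horizontal, Nrp1-positive minus Nrp1-negative) of each tested gene of the 7 pathway lists, spread vertically within a list. Red points passed in limma with the replicate block (Nrp1, Itgb1, Id3 and Tgfbr3), open points did not, and a blue line marks each list median.

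The sum of the dendritic and myeloid markers moved with the replicate number more than with the sorted populations, but not every marker did. Beta-8 is also made by dendritic cells, and latent TGF-beta by many cells including platelets. The 9 dendritic and myeloid markers with a probe set summed to scaled intensities of 2383 and 10526 in Nrp1-positive replicates 1 and 2, against 1683 and 11656 in Nrp1-negative replicates 1 and 2. Most of that was Lyz2, with 1602 and 8504 against 1087 and 8992. Flt3, below the level filter, had 13.6 and 4.00 against 41.2 and 95.9, lower in Nrp1-positive cells in both replicate numbers. Xcr1, also below the filter, had 39.2 and 2.82 against 37.0 and 32.8, and was not higher on the arrays numbered 2. Those arrays, high in the sum of these markers, were low in Tgfb1, and the part of dendritic or myeloid cells in the step of Tgfb1 was not tested. In replicate 1, where the Itgb8 difference was 1.57, 7 of these 9 markers were above 0 in Nrp1-positive minus Nrp1-negative cells, from −0.90 for Flt3 to 1.06 for Cd14. Itgax was at −0.37, Xcr1 at 0.06 and Cd209a at 0.23, and Csf1r, Adgre1, Lyz2 and Itgam ran from 0.46 to 0.78. The list pools dendritic with other myeloid genes, so its count is no reading of dendritic cells alone. In replicate 2, where the Itgb8 difference was 0.60, 0 of the 9 were above 0, from −2.36 for Flt3 to −0.08 for Lyz2. The part of such cells in the Itgb8 difference was not tested. The summed B cell markers (5 genes) were 507 and 557 in Nrp1-positive against 322 and 489 in Nrp1-negative cells. Most of that was Cd79b, with 277 and 393 against 179 and 281, and the genes disagreed in direction. Cd79b and Blk were higher in Nrp1-positive cells in both replicate numbers, Ms4a1 and Cd79a were lower in both, and Pax5 turned. The platelet markers (6 genes) summed to 499 and 391 against 388 and 394, the CD8 T and NK markers (4 genes) to 707 and 1102 against 678 and 1080, the erythroid markers (3 genes) to 97.8 and 70.2 against 121 and 330, and the stromal and endothelial markers (6 genes) to 799 and 916 against 952 and 713. Most of the stromal and endothelial sum was Pecam1, with 674 and 827 against 802 and 620. No detection calls were used, so the dimmest of the marker probe sets cannot be told from background.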

How the data were processed

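RNA of 4 sorted spleen samples had been labelled with biotin by the Affymetrix protocol, per the labels. The authors deposited 1 linear signal intensity per probe set and array. MAS5 had produced them, according to the submitters' processing notes, and its version, settings and detection calls were not given in the sources used here. Groups came from the titles. A 2% trimmed mean of 500 was set on every array, and values were analysed as log2(intensity + 18.3), where 18.3 is 0.25 of the mean array median. Probe sets were named through the platform annotation (34945 with 1 gene, 932 with several, 9160 unnamed here). The level filter kept 22519 probe sets, from percentile 50 of mean log2 level upwards, and a gene was its brightest passing probe set, which gave 10200 genes. The comparison used limma 3.58.1 under R 4.3.3 (two-sided, empirical Bayes variances with a trend on the mean, Benjamini-Hochberg adjustment at 0.05), without and with the replicate number as a block. A run on simulated data required only that fitted changes correlate with planted ones, and is no support for the choice of block or trend. The block leaves 1 residual degree of freedom beside 7.84 from the variance prior. Same-numbered arrays deviated together (correlation 0.73 over genes), and the deposited scaling and the Gapdh ratio differed by replicate number. The number was therefore treated as a batch. Whether the step comes from the cells, the labelling or the processing was not tested.

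The members, the 7 pathway lists, the marker lists and the tests were chosen with earlier results of these data known. Genes named are the members, the listed genes past the threshold, the highest and lowest gene of lists without one, and the 5 genes closest to Itgb8. Outside that rule, Itgb5, Itgb3, Itgb6, Nrros, Tgfb2, Tgfb3, Tgfbr1, Tgfbr2, Itgae, Tgif1 and the marker genes given with values were chosen after their values were seen. Alternatives changed the scaling, pseudocount, filter, probe set rule, block, trend and array set. Figures were drawn with matplotlib 3.10.9. Precision is limited by the number of arrays.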

Additional observations from a re-analysis of the deposited data

How the results depend on the processing

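The Itgb8 difference (1.08) stayed above 0 under every alternative run, from 0.56 to 1.61 with an array left out, but was 0.023 once Nrp1-negative replicate 1 was moved to the Nrp1-positive group. That relabelling gave −0.16 for Itgav (1452784_at) and 0.58 for Tgfb1 (1420653_at), and turned Tgif1, a pathway gene that passed only with the block and quantile normalisation together, to −0.11. With an array left out, Itgav ranged from −0.07 to 0.27, Tgfb1 from −0.87 to 0.77 and Furin from −0.18 to 0.13, where replicate number and group are no longer balanced. Another scaling (quantile or one median) or pseudocount moved these 4 probe sets by less than the spread between the replicate differences.

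Without the block limma called 0 genes higher and 0 lower. With the replicate block it called 29 higher and 17 lower, of which 3 and 1 were pathway genes, and with the block and quantile normalisation 107 higher and 62 lower, of which 4 and 2 were pathway genes. The calls rest on the mean-variance trend, since with the block and without the trend 0 genes passed and 873 had an unadjusted p below 0.05. With an array left out, 0 to 1 genes were called higher and 0 to 1 lower, and 0 to 1 pathway genes higher and 0 lower. Adjusted p-values over the alternatives ran from 3.19e-05 to 1 for Itgb1, from 0.00288 to 1 for Id3 and from 0.000315 to 1 for Tgfbr3, below 0.05 with the block in both scalings and above it in all others. The single call higher was Nrp1, without Nrp1-negative replicate 2. A filter at percentile 75 or 25, no filter, and averaged probe sets called 0 genes, with 82, 280, 488 and 163 at an unadjusted p below 0.05 in that order.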
